A study of Mus musculus with 9 samples.

Results

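The nuclear receptors of mouse liver were followed by name: the PPARs, LXRs, FXR, CAR and PXR, their RXR partners, and the retinoid, thyroid, steroid and orphan receptors. Of the 35 receptors named, 33 were among the 17442 genes of the deposited table, and Hnf4g and Vdr are not analysed here. All 33 averaged at least 10 across the 9 livers, the level needed for testing, and Nr2f1 stood closest to it at a mean of 10.07. The samples were whole livers of male C57BL/6 mice, 5 labelled Msr1-/- and 4 wild type (Wt), and disease state NAFLD (non-alcoholic fatty liver disease) is given for both. The diet was the same in both genotypes, one high in fat and cholesterol (HFD) that lasted 16 weeks, so every liver here is from a fat-fed mouse. Msr1 encodes a scavenger receptor of the macrophage surface that binds oxidised and acetylated lipoproteins. Its deletion is given by the genotype label alone, which names no construct, exon or cell type. Each animal gave 1 RNA sequencing library, and age is not given in the sources used here.

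Nuclear receptors are transcription factors that bind DNA at short hexamer repeats, and most hold a pocket for a small fat-soluble ligand. In hepatocytes they tie gene expression to fatty acids (PPARs), oxysterols (LXRs), bile acids (FXR), foreign chemicals (CAR and PXR) and hormones, and many bind DNA as a pair with an RXR. For much of this family activity is set by ligand, location and coregulators as well as by the amount of messenger RNA, which is what was measured here.

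The classic hexamer of the family, AGGTCA, was looked up in RefSeq promoter windows of 250 bases before each annotated start (GRCm38.p6), as context for the receptors described below. On either strand (AGGTCA or TGACCT) it was found in 17.65% of 51 receptor windows, against 14.02% of 32851 windows over all genes. The 51 belong to 32 of the 35 receptors named, looked up whether or not they were in the deposited table. The shares lie close together, and a match is a run of letters, not a shown binding site. Both annotated starts of Pparg carried it, at chr6:115361104-115361133 and chr6:115362319-115362348 (plus strand), and so did the RXR partners Rxra, at chr2:27709232-27709261 (plus strand), and Rxrg, at chr1:167618165-167618194 (plus strand). Nr1h4, at chr10:89506855-89506884 (minus strand), carried the reverse form. The matches of Rxra, Rxrg and Nr1h4 lay inside the annotated bounds of these genes, before internal starts. The bounds are chr2:27676440-27762957, chr1:167598384-167639623 and chr10:89454234-89533585. Nr5a2, Nr6a1, Rarg and Thrb also carried 1 form or the other, which makes 8 receptors, and Rxra had a second match, in the reverse form. The 30 bases around each match given a position here are printed 5′ to 3′ on the gene's strand, with the hexamer in capitals.
Pparg, first start: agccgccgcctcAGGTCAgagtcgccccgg
Pparg, second start: ttttatataagggacgcgaggAGGTCAaga
Rxra: gggtggcaggaaAGGTCAgtcactctctgt
Rxrg: atcggggttgaaAGGTCAgctgaaagcttc
Nr1h4: ccgtgtggcattTGACCTccagccagtctt

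Between 15006773 and 18238932 reads per liver were recovered, and the first principal component placed wild type 3 at -88.74, against -8.30 to 27.61 for the other livers. Msr1 itself, the check of the labels, stood at 157, 153, 209, 186 and 172 normalised read counts in livers labelled Msr1-/- 1 to 5, against 256, 202, 460.5 and 194 in wild type 1 to 4. Its reads were thus found in all the livers labelled as lacking it, and gene totals do not show which exons they came from. The log2 difference was -0.58 (two-sided exact permutation p = 0.0476, where 0.0159 is the smallest these livers allow). Without wild type 3 it was -0.31 (exact permutation p = 0.107), and of the 9 runs that left out 1 liver only that without Msr1-/- 3 gave a p under 0.05 (0.0286). Summed markers of resident macrophages (12 Kupffer cell genes, none at 0 in any liver) came to 5211 to 6995 in livers labelled Msr1-/- and 8507 to 18410.5 in wild type, where wild type 3 was the highest. Their median log2 fold change was -0.91, all 12 being negative, with 2 lower by limma, 2 by edgeR and 9 by DESeq2, and 5 lower by limma without wild type 3 (median -0.67). Over all genes limma called 0.703% lower, and 2.32% without wild type 3. In either direction edgeR called 1.43% and DESeq2 6% of all genes with all livers. The 10 hepatocyte markers had a median log2 fold change of -0.015 and 0 calls by limma (0 at an unadjusted p under 0.05), edgeR or DESeq2. Lipid-associated macrophage markers had a median log2 fold change of -1.46 (1 of 10 lower by limma), and -0.81 without wild type 3 (4 of 9 lower), while DESeq2 on all livers gave -2.07 (5 of 10 lower). Cholangiocyte markers had a median of -0.69 (1 of 4 lower by limma, 2 by DESeq2) and lymphocyte markers -0.67 (1 of 9 lower by limma, 2 by DESeq2). For the 3 adipocyte markers tested the sign of the median turned with the test. It was 0.66 by limma (1 higher), -0.56 by edgeR (0 called) and -0.55 by DESeq2 (1 higher). By limma without wild type 3 it was 1.96. These 3, Cidec, Fabp4 and Cfd, are also in the PPARγ list described below, and Cfd was the 1 called. For stellate cell markers the median was -0.34, with 0 of 12 called by limma (2 at an unadjusted p under 0.05), edgeR or DESeq2, and for sinusoidal endothelial markers -0.0080, with 0 of 10 by each (0 unadjusted). For the 3 neutrophil markers it was -1.43, with 0 called by limma (3 unadjusted), 1 by edgeR and 3 by DESeq2. In whole liver RNA, fewer cells of a type and less RNA per cell cannot be told apart. Livers are given in the order of animal number throughout and values are normalised read counts. Fold changes refer to log2(value + 1), which makes those of low genes come out too small.

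No receptor passed the limma test with all 9 livers, and the differences nearest to it were in Ppara, Esr1 and Nr1i2. By limma with Benjamini-Hochberg adjustment over 12937 genes, 0 of 33 receptors had an adjusted p under 0.05, where 1.37% of all tested genes did (0.665% higher and 0.703% lower). At an unadjusted p under 0.05 there were 6 receptors (18.2%), close to the 15.3% of all genes. In order of p these were Ppara, Esr1, Nr1i2, Esrrg, Nr1i3 and Rxrg, and Esr1 alone of them was lower in livers labelled Msr1-/-. The edgeR test called 0 receptors (1.43% of all genes), and DESeq2 called Ppara, Nr1i2 and Esr1, 9.09% against 6% of genes. The receptors' median log2 fold change was 0.15, against 0.017 for all genes, and 24 of 33 were positive, where 52.7% of all genes were. For 23 receptors the 95% interval lay within 1 log2 unit of 0 on both sides, and 27 had a log2 fold change within 0.5 of 0.

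Leaving out wild type 3 brought 3 calls by limma, Nr1i3, Ppara and Pparg, all higher in livers labelled Msr1-/- (higher calls were 2.59% and lower calls 2.32% of all genes). That is 9.38% of 32 receptors tested, Nr2f1 having dropped under the mean of 10, where 4.91% of all genes were called. The same 3 were called by edgeR without that liver (5.12% of genes), and DESeq2 added Esr1 to them (12.5% against 8.26% of genes). Leaving out any of the other 8 livers gave 0 receptors by limma. With down-weighting of divergent livers (limma array weights), Nr1i3 and Ppara were called, 6.06% against 4.1% of genes. The values of the genotypes did not overlap for 2 receptors, Nr1i3 and Ppara, which is 6.06% of them against 7.29% of all genes. Without wild type 3 they did not overlap for Pparg as well. That is 9.09% of all 33 receptors, Nr2f1 counted among them, against 14.2% of the 12823 genes tested without that liver.

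**Figure D1:**
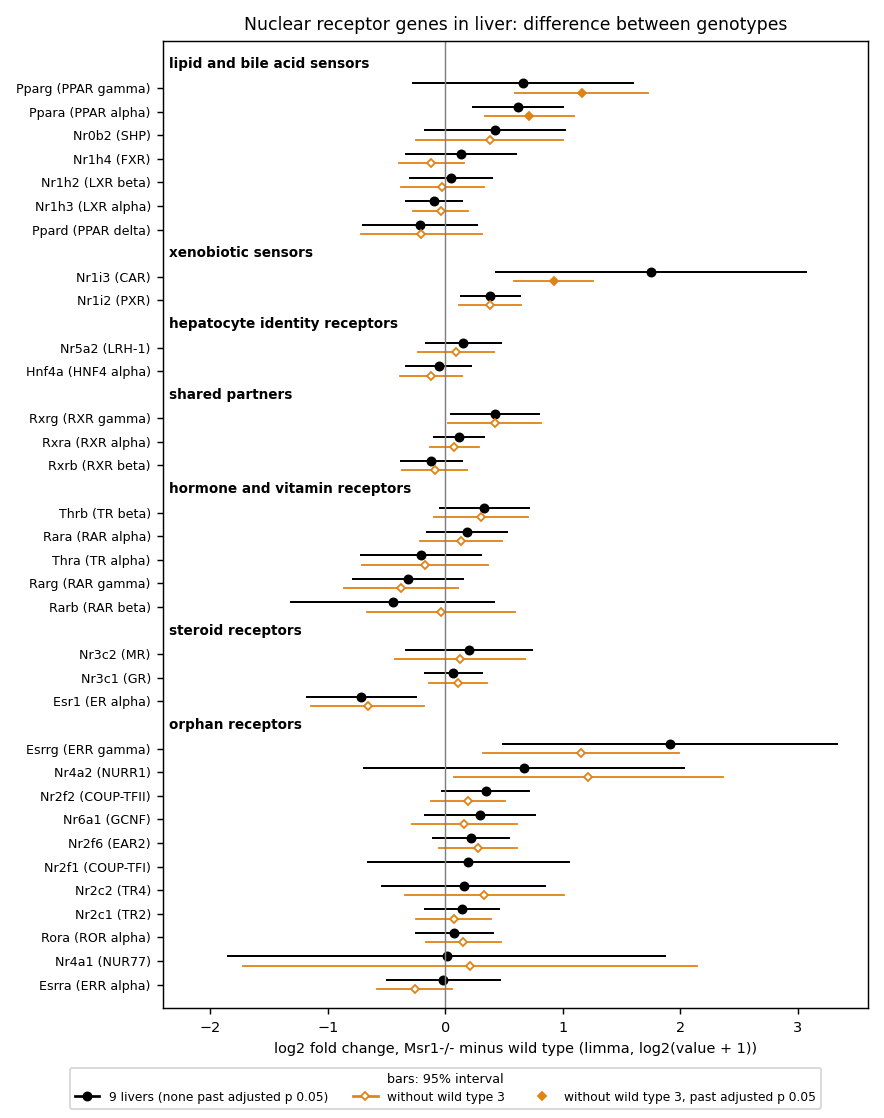
Log2 fold change of each of the 33 receptors (x axis, livers labelled Msr1-/- minus wild type, limma on log2(value + 1)) with its 95% interval, grouped by role down the page. Black circles use all 9 livers, and none passed an adjusted p of 0.05. Orange diamonds leave out wild type 3, and the filled ones, Nr1i3, Ppara and Pparg, passed.

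Levels of different receptors can be set side by side only per length, as normalised read counts per kilobase of annotated exon. On that scale Hnf4a, a constitutive regulator of hepatocyte genes, had the highest mean over the livers at 1373 per kilobase, followed by the bile acid receptor Nr1h4 at 1300.0. Rxra stood at 691, Nr1h3 at 628, Nr0b2 at 604, Nr1i2 at 492 and Nr1i3 at 256 per kilobase, all metabolic receptors or their partner. At the low end Nr2f1 had 1.98, Nr2c2 2.84, Nr4a2 4.98 and Esrrg 9.05 per kilobase. Exon stretches shared with genes on the opposite strand were kept in these lengths, among them 74.9% of Nr1i3, 54.4% of Nr2f6, 34.1% of Rarb and 30.7% of Nr2c2. How reads on such stretches were counted is not stated, so the places of these genes in the order are uncertain. The ranges of all neighbours in the order overlapped over the 9 livers. Within single livers Nr1h4 exceeded Rxra and Nr1i2 exceeded Nr1i3 in 9 of 9, while the other neighbours kept this order in 2 to 8 livers. Ppara averaged 109 per kilobase, Pparg 76.3 and Ppard 10.2.

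Within each subfamily 1 or 2 members made up most of the level per kilobase. Rxra made up 83.3% to 86.2% of the RXR level in livers labelled Msr1-/- and 82.2% to 85.6% in wild type. Nr1h3 (LXRα) made up 78.5% to 81.1% of the LXR level in livers labelled Msr1-/- and 77.4% to 85.2% in wild type. Both genotypes thus had the same leading member, with ranges that overlapped. Among the PPARs, Pparg made up 28.1% to 43.0% in livers labelled Msr1-/-, against 20.8%, 34.6%, 56.8% and 33.5% in wild type 1 to 4. Wild type 3 was the only liver in which Pparg exceeded Ppara per kilobase. Esrrg made up 9.22% to 15.6% of the ERR level in livers labelled Msr1-/- and 0.884% to 9.27% in wild type.

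**Figure D2:**
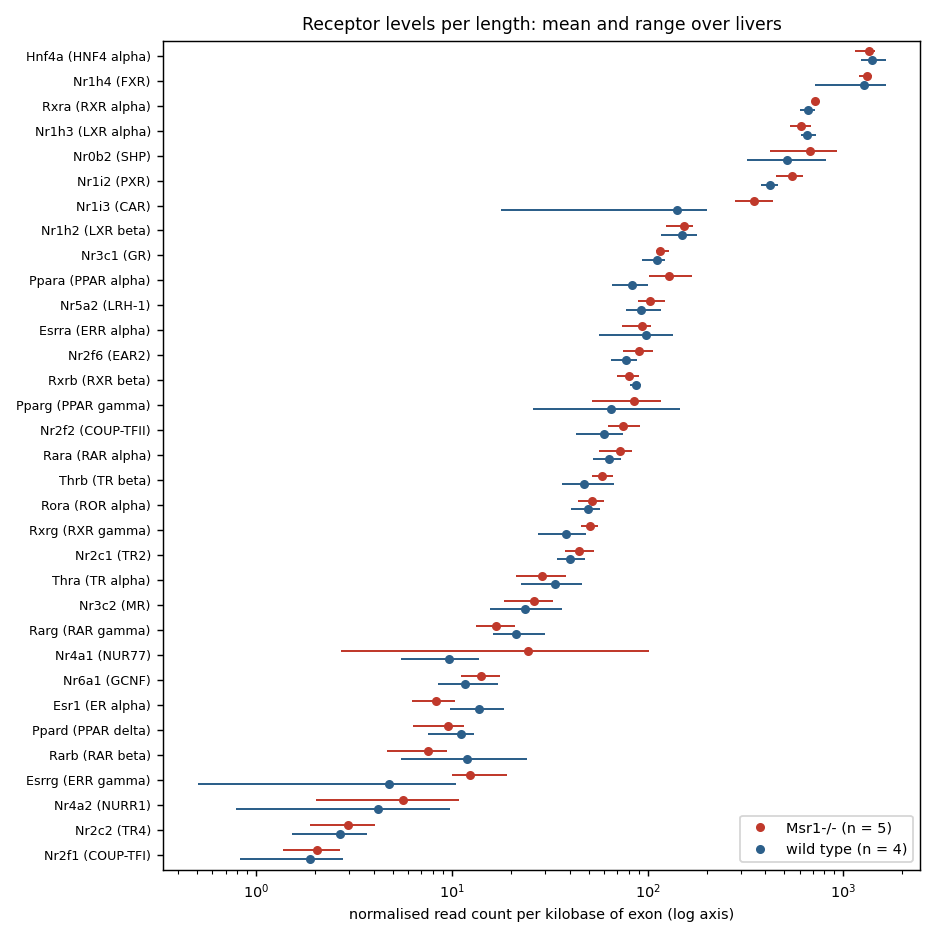
Mean and range of each receptor's level over livers (x axis, normalised read counts per kilobase of exon, log scale), ordered by the mean over all livers, with livers labelled Msr1-/- and wild type shown separately. Hnf4a and Nr1h4 lead with means of 1373 and 1300.0, Nr2f1 is lowest at 1.98, and the wild-type range of Nr1i3 reaches far down to wild type 3.

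The PPARs sense fatty acids. Ppara, which drives fatty acid oxidation in the fasted or fat-loaded liver (chr15:85734983-85802819, plus strand, GRCm38), stood at 644, 389, 546, 421 and 475 in livers labelled Msr1-/-, against 351, 293, 386 and 253 in wild type. Its lowest value in livers labelled Msr1-/- lay just above the highest wild-type value, so the genotypes did not overlap. The means were 495 ± 103 and 321 ± 59.0 (SD, n = 5 and n = 4), a 1.54-fold higher level in livers labelled Msr1-/- (log2 0.62, 95% interval 0.23 to 1.00, limma adjusted p = 0.112). The difference without wild type 3 was 1.64-fold (limma adjusted p = 0.0375). With all 9 livers the adjusted p was 0.104 by edgeR and 0.0304 by DESeq2.

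Pparg, the PPAR of adipocytes that also rises in fat-laden hepatocytes (chr6:115360951-115490399, plus strand), stood at 345, 249.5, 304, 207 and 154 in livers labelled Msr1-/-, against 77.0, 139, 434 and 118 in wild type. Wild type 3 held the highest value of all 9 livers, and the other 3 wild-type livers lay below all those labelled Msr1-/-. With every liver the means were 252 ± 75.9 and 192 ± 163, and the log2 fold change was 0.66 (95% interval -0.28 to 1.60, limma adjusted p = 0.529). Leaving out wild type 3 put the wild-type mean at 111 ± 31.6 and the log2 fold change at 1.16 (0.59 to 1.73, limma adjusted p = 0.0285), a 2.23-fold higher level in livers labelled Msr1-/-. Ppard, the most widely expressed PPAR across tissues, stood at 47.7 to 86.8 in livers labelled Msr1-/- and 56.7 to 97.7 in wild type, and did not pass the test (log2 -0.22, limma adjusted p = 0.728).

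Of 41 tested targets of PPARα, 6 rose in livers labelled Msr1-/- and 0 fell by limma, where 0.665% of all genes rose, and the median log2 fold change was 0.53. Acot3, a peroxisomal acyl-CoA thioesterase, had 317, 492, 333, 258 and 246 in livers labelled Msr1-/-, against 23.5, 1.06, 35.3 and 13.3 in wild type. All livers labelled Msr1-/- were far above all wild-type livers (25.2-fold, limma adjusted p = 0.0114, log2 3.78 without wild type 2, the liver with 1.06). The related thioesterase genes Acot4 (2.58-fold, limma adjusted p = 0.012) and Acot8 (1.55-fold, 0.0281) rose as well, the Acot3 and Acot4 pair being close copies whose reads may be hard to tell apart. The fatty acid omega-hydroxylase Cyp4a10, 1 of several near-identical Cyp4a genes, averaged 4316 ± 1162 in livers labelled Msr1-/- and 1091 ± 547 in wild type (4.24-fold, limma adjusted p = 0.0226). Angptl4, a secreted inhibitor of lipoprotein lipase, was 1.90-fold higher in livers labelled Msr1-/- (limma adjusted p = 0.041), a call that edgeR did not make (adjusted p = 0.0566). By edgeR 5 of the 41 were higher and by DESeq2 12, and 0 lower by each, where 1.43% and 6% of all genes were called in either direction.

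For some other PPARα targets, Cyp4a14 among them, the call turned on wild type 3. Cyp4a14 had 4683, 3922, 2663, 2451 and 1311 in livers labelled Msr1-/-, against 192, 109, 3708 and 572 in wild type, where wild type 3 lay within the range of livers labelled Msr1-/-. Its log2 fold change was 2.58 with all livers (limma adjusted p = 0.168) and 3.58 without wild type 3 (limma adjusted p = 0.00358). Pdk4, which closes the pyruvate dehydrogenase gate, and the hormone gene Fgf21 had their highest values of any liver in wild type 3, at 347 and 652. Pdk4 stood at 29.1 to 88.0 in livers labelled Msr1-/- and 15.0 to 49.3 in the other wild-type livers, Fgf21 at 24.0 to 104 and 6.42 to 94.9. Neither passed the test with all livers (limma adjusted p = 0.998 and 0.96) or without wild type 3 (0.212 and 0.464). On the 8 livers without wild type 3 the list had 18 genes higher and 0 lower, where 2.59% of all genes were called higher, with a median of 0.70. Of the calls on 9 livers, that of Cyp4a10 ended on omission of any of Msr1-/- 1 to 4 or of wild type 1 (limma adjusted p at most 0.0715), and that of Acot8 on omission of any liver labelled Msr1-/-, wild type 1 or wild type 2 (at most 0.0835). Angptl4 was lost on omission of any liver labelled Msr1-/-, wild type 1 or wild type 4 (at most 0.101), while Acot3 and Acot4 kept their calls in all 9 runs.

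Genes linked to PPARγ in fatty liver moved in both directions, with 2 of 10 tested higher and 1 lower by limma. Over all genes 0.665% were called higher and 0.703% lower. The list's median was 0.96, which was 0.37 by edgeR (1 higher, 1 lower) and 0.38 by DESeq2 (2 higher, 1 lower). Those tests called 1.43% and 6% of all genes in either direction. G0s2, an inhibitor of triglyceride lipase, had 3201, 6128, 4044, 2894 and 2636 in livers labelled Msr1-/-, against 1231, 1224, 1909 and 1515 in wild type (2.49-fold, limma adjusted p = 0.0281). Lpl, lipoprotein lipase, had 311, 329, 248, 265 and 382 in livers labelled Msr1-/-, against 867, 683, 4057 and 1140.3 in wild type, a 4.23-fold lower level (limma adjusted p = 0.041). In both genes the genotypes did not overlap, and Lpl was the list's only call downwards. Cfd, the adipose-derived complement factor adipsin, averaged 231 ± 169.6 in livers labelled Msr1-/- and 24.4 ± 27.4 in wild type (9.86-fold, limma adjusted p = 0.0436), and its edgeR adjusted p was 0.0621. The fat cell hormone gene Adipoq stood at 0 to 1.06 in livers labelled Msr1-/- and 1.06 to 3.14 in wild type. The summed adipocyte markers stood at 252 to 965 and 107 to 3126, wild type 3 being the highest. Those summed were Adipoq, Cidec, Fabp4 and Cfd, which are all in this list too. The sum is therefore not separate from the list. The part of adipocytes in these results, and that of macrophages, which also make Lpl and whose marker sums were lower in livers labelled Msr1-/-, was not tested.

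The fatty acid carrier Cd36 and the lipid droplet protein Cidec were highest in wild type 3. Cd36 had 3169.8, 2126, 1453, 1524 and 619 in livers labelled Msr1-/-, against 364, 271, 3173 and 579 in wild type, and its log2 fold change was 1.26 (limma adjusted p = 0.417) with wild type 3 and 2.02 (0.0201) without. Cidec stood at 47.1 to 596 in livers labelled Msr1-/-, against 26.7, 27.4, 2247 and 283 in wild type, and did not pass with or without wild type 3 (limma adjusted p = 0.87 and 0.209). The acyltransferase gene Mogat1 passed without wild type 3 (log2 1.98, limma adjusted p = 0.0334) and not with it (0.39). Of the 10 genes 6 were higher and 1 lower without wild type 3, with a median of 1.74. Over all genes 2.59% were then called higher and 2.32% lower. The call of G0s2 ended on omission of Msr1-/- 1, Msr1-/- 3, Msr1-/- 4, wild type 1 or 2 (limma adjusted p at most 0.0819). Lpl was lost on omission of any liver labelled Msr1-/-, wild type 1 or wild type 4 (at most 0.107), and Cfd on omission of any of Msr1-/- 1 to 4, wild type 1 or wild type 2 (at most 0.113), its log2 fold change being 3.93 without wild type 4 and 3.30 with it.

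CAR and PXR are the receptors for foreign chemicals, and bile acids and steroids also act on them. Nr1i3, the gene of CAR (chr1:171213970-171220701, plus strand), stood at 1302, 1573, 1930.5, 1230.2 and 1634 in livers labelled Msr1-/-, against 827, 888, 79.2 and 694 in wild type. Every liver labelled Msr1-/- was above every wild-type liver, and wild type 3 lay far below the rest. The means were 1534 ± 280.4 and 622 ± 371, the log2 fold change was 1.75 (95% interval 0.43 to 3.07), and the limma adjusted p was 0.189. When wild type 3 was left out, wild type averaged 803 ± 99.1 and livers labelled Msr1-/- stood 1.89-fold higher (log2 0.92, 0.59 to 1.26, limma adjusted p = 0.00851). In the plot of receptors by liver, Nr1i3 and Ppara are the panels in which the genotypes stand fully apart.

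**Figure D3:**
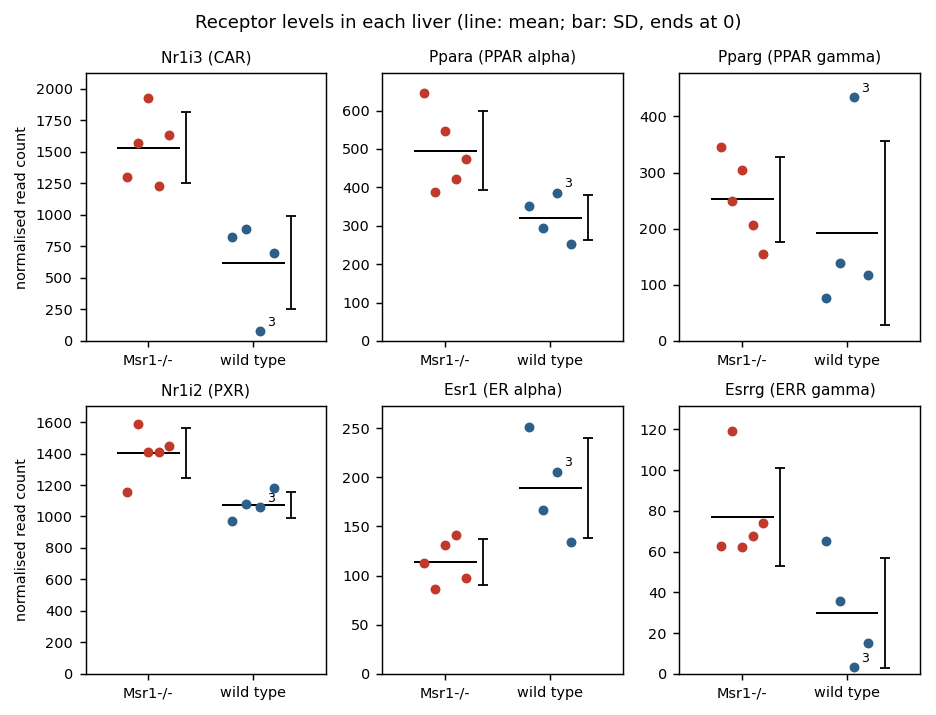
Normalised read counts per liver (y axis, from 0) of Nr1i3, Ppara, Pparg, Nr1i2, Esr1 and Esrrg, with livers labelled Msr1-/- left of wild type, points for livers, lines for means and bars for SD (n = 5 and n = 4). Wild type 3, marked 3, is the lowest point for Nr1i3 at 79.2 and Esrrg at 3.14 and the highest for Pparg at 434.

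The upstream window of Nr1i3 is printed because this receptor had the smallest adjusted p of the 3 called without wild type 3. It spans chr1:171213720-171213969 (plus strand, GRCm38.p6, RefSeq) and ends at the base before the annotated start. The hexamer AGGTCA was not found in it on either strand, nor was its variant GGGTCA, nor another form of it, AGTTCA, which says only that these letters are not in this window. At least 1 of these 3 forms was found in 32.92% of all windows and in 37.25% of the receptors' windows.
Nr1i3 upstream: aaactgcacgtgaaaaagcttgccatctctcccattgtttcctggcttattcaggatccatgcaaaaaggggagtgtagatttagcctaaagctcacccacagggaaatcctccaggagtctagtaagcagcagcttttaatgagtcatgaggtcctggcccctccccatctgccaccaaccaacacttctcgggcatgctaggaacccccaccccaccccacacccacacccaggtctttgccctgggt

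Annotated exons of Nr1i3 overlap those of Tomm40l, a mitochondrial import gene on the opposite strand, over 74.9% of the Nr1i3 exon length. Strand use in the counting is not stated, so reads of the pair cannot be told apart with certainty. Tomm40l stood at 99.6, 97.9, 172, 109 and 175 in livers labelled Msr1-/-, against 71.6, 68.6, 59.6 and 59.8 in wild type (log2 0.95, limma adjusted p = 0.054, and 0.0384 without wild type 3). It was higher in livers labelled Msr1-/- without overlap, as Nr1i3 was, but wild type 3 was not far below the other wild-type livers in it.

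Nr1i2, the gene of PXR (chr16:38248323-38294824, minus strand), stood at 1153, 1590.2, 1407, 1408 and 1451 in livers labelled Msr1-/-, against 973, 1077, 1058 and 1178 in wild type. Only Msr1-/- 1 fell below the highest wild-type liver, and wild type 3 lay among the others. The log2 fold change was 0.38 (95% interval 0.13 to 0.63, 1.30-fold higher in livers labelled Msr1-/-) and did not pass by limma with or without wild type 3 (adjusted p = 0.129 and 0.102). DESeq2 gave an adjusted p of 0.0333 on the 9 livers.

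Of 18 tested CAR targets, 4 rose and 0 fell in livers labelled Msr1-/- by limma, and the median log2 fold change was 1.14, with 16 positive and 2 negative. Over all genes, 0.665% were called higher by limma and 52.7% were positive. By edgeR and DESeq2 the median was 0.54, with 14 positive and 4 negative, and 3 and 4 genes were called higher. In either direction these tests called 1.43% and 6% of all genes. Cyp2b9, a steroid-hydroxylating cytochrome, had 141, 202, 124, 209 and 33.1 in livers labelled Msr1-/-, against 1.07, 3.17, 5.49 and 4.74 in wild type. Even its lowest liver labelled Msr1-/- was well above all wild-type livers (28.5-fold, limma adjusted p = 0.00383), and the call stood in each run that left out 1 liver. Cyp2c29 had 30871, 24063, 19537, 23276 and 21631 in livers labelled Msr1-/-, against 7985, 2568, 1557 and 6930.1 in wild type (6.11-fold, limma adjusted p = 0.0204). The bilirubin-conjugating enzyme Ugt1a1 (2.79-fold, limma adjusted p = 0.0347) and the basolateral exporter Abcc3 (2.23-fold, 0.0498, and 0.0644 by edgeR) made up the 4. Cyp2b9 and Cyp2c29 belong to families of near-identical copies, so the copy behind the reads is uncertain.

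Cyp2b10, the mouse gene most used as a readout of CAR, did not pass by limma with all livers. It stood at 14.8, 26.4, 31.0, 49.1 and 23.0 in livers labelled Msr1-/-, against 0, 1.06, 117 and 20.9 in wild type (log2 1.71, limma adjusted p = 0.549). Wild type 3 was the highest of all livers in Cyp2b10 and the lowest in Nr1i3. Without that liver the log2 fold change of Cyp2b10 was 2.97 (95% interval 1.23 to 4.71, limma adjusted p = 0.0562). By edgeR and DESeq2 on all livers the sign of the Cyp2b10 fold change turned, at log2 -0.32 and -0.27. Without wild type 3, 6 of 17 CAR targets were higher and 0 lower, where 2.59% of all genes were called higher, with a median of 0.98. The Cyp2c29 call ended on omission of Msr1-/- 1, Msr1-/- 2, Msr1-/- 4 or wild type 2 (limma adjusted p at most 0.0657). Ugt1a1 was lost on omission of Msr1-/- 1, Msr1-/- 2, Msr1-/- 3, Msr1-/- 5, wild type 2 or wild type 4 (at most 0.0899), and Abcc3 without any liver but wild type 3 (at most 0.119).

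All 16 tested PXR targets had positive log2 fold changes by limma (14 by edgeR), where 52.7% of all genes did, with a median of 0.71. But 1 rose and 0 fell by limma, where 0.665% of all genes rose. DESeq2 called 2 higher (6% of all genes in either direction). The 1 called by limma was Aldh1a1, a retinal dehydrogenase, at 37009, 35679.5, 28348, 33766 and 28551 in livers labelled Msr1-/-, against 23554, 13156, 17433 and 17517 in wild type (1.85-fold, limma adjusted p = 0.0433). The genotypes did not overlap, and the call was lost on omission of any liver labelled Msr1-/-, wild type 2 or of wild type 4 (limma adjusted p at most 0.117). Cyp3a11, the main drug-metabolising cytochrome under PXR and 1 of a family of close copies, had 58826, 53947, 36013, 37417 and 33412 in livers labelled Msr1-/-, against 5564, 2419, 66891 and 13614 in wild type. Wild type 3 again exceeded every other liver, and Cyp3a11 passed without it (log2 2.91, limma adjusted p = 0.00428) and not with it (2.02, 0.216). Gstm1, a glutathione transferase, also passed without wild type 3 (log2 1.00, limma adjusted p = 0.036). Of the 16, 6 were then higher and 0 lower, where 2.59% of all genes were called higher, with a median of 0.94. Cyp3a25 passed without wild type 4 (log2 1.26, limma adjusted p = 0.0172) but not with all livers (0.99, 0.0831).

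**Figure D4:**
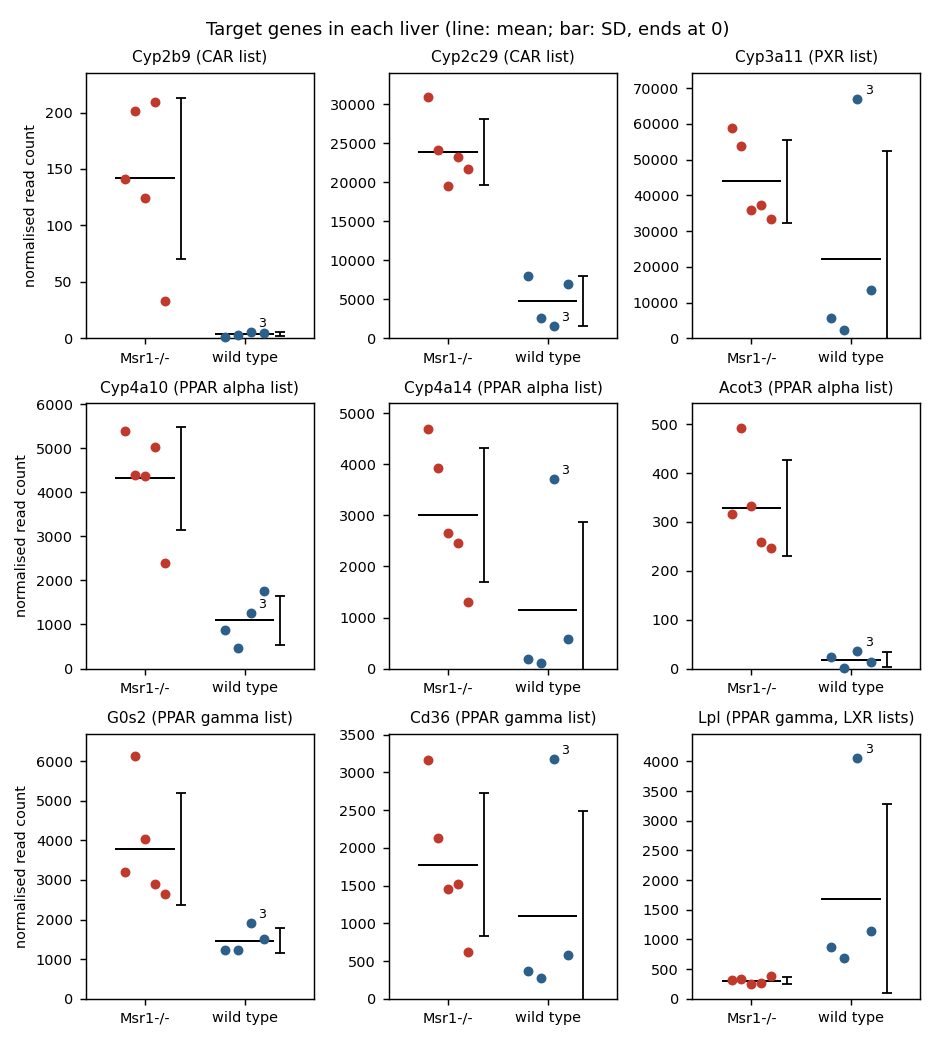
Normalised read counts per liver (y axis, from 0) of 9 target genes of CAR, PXR and the PPARs, with livers labelled Msr1-/- left of wild type, points for livers, lines for means and bars for SD (n = 5 and n = 4). Wild type 3, marked 3, lies with the other wild-type livers for Cyp2b9 and Acot3 and with or above livers labelled Msr1-/- for Cyp3a11, Cyp4a14 and Cd36.

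FXR senses bile acids and induces SHP, a receptor without a DNA-binding domain that holds down bile acid synthesis. Nr1h4, the gene of FXR, stood at 2767, 3145, 3228, 3225 and 2892 in livers labelled Msr1-/-, against 3791, 3544, 1654 and 2699 in wild type. Wild type 3 was the lowest and wild type 1 the highest of the 9 livers, so the wild-type range enclosed all livers labelled Msr1-/-. The log2 fold change was 0.13 (95% interval -0.34 to 0.60) with wild type 3 and -0.12 without, and it did not pass (limma adjusted p = 0.85 and 0.626). Nr0b2, the gene of SHP, stood at 475, 702, 866, 727 and 1049 in livers labelled Msr1-/-, against 546, 366, 507 and 918 in wild type, with overlap (log2 0.42, limma adjusted p = 0.529).

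FXR-induced genes gave 0 calls among 17 by limma (1 at an unadjusted p under 0.05), edgeR or DESeq2, and their median was 0.026. The bile salt export pump Abcb11 averaged 6937 ± 830.2 in livers labelled Msr1-/- and 7332 ± 855 in wild type (log2 -0.080, limma adjusted p = 0.85). The phospholipid flippase Abcb4 passed only without wild type 3 (log2 0.64, limma adjusted p = 0.0394). Among 6 genes of bile acid synthesis and uptake there were 0 calls by limma (2 at an unadjusted p under 0.05), edgeR or DESeq2, with a median of 0.33. Cyp7a1, the rate-limiting enzyme of bile acid synthesis, stood at 561, 1232, 2245, 5339 and 1983 in livers labelled Msr1-/-, against 7026, 2928, 1198 and 1195 in wild type, a spread within each genotype larger than the difference (log2 -0.41, limma adjusted p = 0.845). Cyp8b1, which sets the cholic acid share, stood at 2545 to 6032 in livers labelled Msr1-/- and 1319.5 to 4731 in wild type (log2 0.64, limma adjusted p = 0.439). Cyp7b1 of the alternative pathway fell without wild type 3 (log2 -1.11, limma adjusted p = 0.0383) and did not pass with it (-0.46, 0.768).

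The LXRs sense oxysterols and promote cholesterol efflux and lipogenesis. Nr1h3 (LXRα) stood at 1345, 1481, 1501, 1720.1 and 1618 in livers labelled Msr1-/-, against 1528, 1535, 1829 and 1658 in wild type (log2 -0.096, limma adjusted p = 0.758). Nr1h2 (LXRβ) averaged 514 ± 62.9 in livers labelled Msr1-/- and 503 ± 109 in wild type (log2 0.046, limma adjusted p = 0.937). Both overlapped widely, with 95% intervals of -0.33 to 0.14 for Nr1h3 and -0.30 to 0.40 for Nr1h2. Of 19 tested LXR targets 0 rose and 1 fell by limma (0.703% of all genes fell), with a median of 0.11, and that 1 was Lpl, given above. DESeq2 called 2 higher and 1 lower, where 6% of all genes were called in either direction.

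Among LXR targets, the sterol exporters Abcg5 and Abcg8 pump cholesterol into bile as a pair. Abcg8 had 3473, 2822, 4328, 4169 and 4699.7 in livers labelled Msr1-/-, against 1909.8, 2165, 1438 and 3384 in wild type, and Abcg5 3913, 3664, 5864, 5544 and 5236, against 2368, 2716, 1592 and 5102. Only wild type 4 reached the range of livers labelled Msr1-/- in each. Both passed without wild type 4 (log2 1.08 and 1.13, limma adjusted p = 0.0349 and 0.0433) and not with it (0.86 and 0.82, 0.0967 and 0.195), while DESeq2 on all livers called Abcg8 higher (adjusted p = 0.0275). The cholesterol exporter Abca1 averaged 2816 ± 244 in livers labelled Msr1-/- and 2607 ± 286 in wild type (log2 0.11, limma adjusted p = 0.717). Srebf1, the lipogenic regulator, stood at 5180.2 to 9789 in livers labelled Msr1-/- and 4712 to 9513 in wild type (log2 0.38, limma adjusted p = 0.528). Abcg1 had 95.9 to 133 in livers labelled Msr1-/-, against 130.5, 122, 274 and 105 in wild type (log2 -0.30, limma adjusted p = 0.657).

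Hnf4a and Nr5a2 (LRH-1) are constitutive regulators of hepatocyte and bile acid genes. Hnf4a stood at 6979, 6903, 5535, 6658 and 6451 in livers labelled Msr1-/-, against 6859.8, 7964, 5911 and 6387 in wild type. The ranges overlapped, and the 95% interval of the log2 fold change, -0.33 to 0.22, held it within 0.5 of 0 (limma adjusted p = 0.895). Nr5a2 averaged 604 ± 72.7 in livers labelled Msr1-/- and 548 ± 107 in wild type (log2 0.15, limma adjusted p = 0.697). Among 16 HNF4α targets limma and edgeR gave 0 calls (2 at an unadjusted p under 0.05 by limma). DESeq2 gave 1, where it called 6% of all genes in either direction, and the list's median was 0.21.

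The RXRs pair with most of the receptors above. Rxra stood at 3929.6, 3844, 3989.7, 3849.5 and 3930.3 in livers labelled Msr1-/-, against 3814, 3898, 3279 and 3439 in wild type. Livers labelled Msr1-/- lay in a narrow band that held wild type 2, with the other wild-type livers below it (log2 0.12, 95% interval -0.094 to 0.33, limma adjusted p = 0.639). Rxrb averaged 319 ± 37.5 in livers labelled Msr1-/- and 346 ± 23.9 in wild type (log2 -0.12, limma adjusted p = 0.711). Rxrg, the rarest of the 3 per kilobase, stood at 105, 124, 128, 115 and 113 in livers labelled Msr1-/-, against 93.0, 63.3, 85.5 and 112 in wild type. Only wild type 4 reached into the upper group, and the test was not passed (log2 0.42, 95% interval 0.049 to 0.80, limma adjusted p = 0.258).

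Retinoic acid and thyroid hormone receptors did not pass the test. Rara averaged 314 ± 45.7 in livers labelled Msr1-/- and 277 ± 46.9 in wild type (log2 0.18, limma adjusted p = 0.648), and Rarg 71.5 ± 13.8 and 90.5 ± 25.5 (log2 -0.32, 0.541). Rarb had 49.8, 41.1, 24.7, 49.1 and 35.1 in livers labelled Msr1-/-, against 28.9, 36.9, 127 and 58.8 in wild type. Wild type 3 was its highest liver, and the log2 fold change was -0.45 with that liver (limma adjusted p = 0.665) and -0.037 without it. Hepatic stellate cells are the main retinoid store of the liver, and their 12 summed markers came to 6441 to 7305 in livers labelled Msr1-/- and 6580 to 13834.5 in wild type, wild type 3 again being the highest. Whether they have a part in the Rarb values was not tested. Exons of Rarb overlap those of Top2b on the opposite strand over 34.1% of their length, and Top2b stood at 541 to 765 in livers labelled Msr1-/- and 563 to 880.1 in wild type.

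Of 6 tested retinoic acid receptor targets, 0 rose and 1 fell by limma (0.703% of all genes fell), with a median of -0.38. Cyp26a1, which degrades retinoic acid, stood at 57.7 to 286 in livers labelled Msr1-/- and 41.7 to 318 in wild type and did not pass (log2 -0.23, limma adjusted p = 0.916).

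Thra averaged 134 ± 32.4 in livers labelled Msr1-/- and 156 ± 45.9 in wild type (log2 -0.21, limma adjusted p = 0.758). Thrb, the main hepatic thyroid hormone receptor, had 495, 475, 384, 389 and 423 in livers labelled Msr1-/-, against 502, 272, 322 and 312 in wild type. Wild type 1 alone kept the Thrb ranges from standing apart (log2 0.33, 95% interval -0.049 to 0.71, limma adjusted p = 0.408, and 0.109 without wild type 1). Among 8 thyroid hormone targets limma gave 0 calls (1 at an unadjusted p under 0.05), as did edgeR and DESeq2, with a median of 0.38. The lipogenic malic enzyme gene Me1 (log2 1.33, limma adjusted p = 0.0189) and the glycerophosphate shuttle gene Gpd2 (0.00841) passed without wild type 3. Both were higher in livers labelled Msr1-/-, where 2.59% of all genes were called higher without that liver.

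Among the steroid receptors, Esr1 was lower in livers labelled Msr1-/- without passing the test by limma. This gene of estrogen receptor α (chr10:4611593-5005614, plus strand) stood at 112, 86.1, 131, 141 and 97.2 in livers labelled Msr1-/-, against 251, 167, 206 and 134 in wild type. Only wild type 4 lay within the range of livers labelled Msr1-/-. The means were 114 ± 23.0 and 189 ± 50.7, a 1.64-fold lower level (log2 -0.72, 95% interval -1.18 to -0.25, limma adjusted p = 0.124 and 0.114 without wild type 3). DESeq2 gave an adjusted p of 0.0301 on the 9 livers.

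The glucocorticoid receptor gene Nr3c1 stood at 850.1 to 983 in livers labelled Msr1-/- and 717 to 942 in wild type, with a log2 fold change of 0.066 (95% interval -0.18 to 0.31, limma adjusted p = 0.853). Nr3c2, of the mineralocorticoid receptor, averaged 171 ± 34.8 in livers labelled Msr1-/- and 154 ± 59.4 in wild type (log2 0.20, limma adjusted p = 0.79). Of 14 glucocorticoid targets 1 rose and 0 fell by limma (0.665% of all genes rose), Angptl4 again, with a median of 0.24. By edgeR 0 were called (4 at an unadjusted p under 0.05), and by DESeq2 Angptl4 was called higher and Mt1 lower. Over all genes DESeq2 called 6% in either direction. The metal-binding gene Mt1 had 142, 91.0, 139.7, 158 and 91.2 in livers labelled Msr1-/-, against 215, 453, 389 and 158.4 in wild type, without overlap. By limma it fell without wild type 4 (log2 -1.46, adjusted p = 0.042) and did not pass with it (-1.19, 0.0855), where DESeq2 gave an adjusted p of 0.00289.

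The orphan receptors include the estrogen-related receptors, which work with the coactivator PGC-1α on mitochondrial genes. Esrrg (ERRγ, chr1:187608791-188214885, plus strand) stood at 62.5, 119, 62.1, 67.8 and 74.1 in livers labelled Msr1-/-, against 65.2, 35.9, 3.14 and 15.2 in wild type. Wild type 1 lay with the livers labelled Msr1-/- and wild type 3 was the lowest. The log2 fold change was 1.91 (95% interval 0.49 to 3.34, limma adjusted p = 0.183), and 1.15 without wild type 3 (0.32 to 1.99, 0.111). Esrra (ERRα) had 323, 458, 432, 421 and 416 in livers labelled Msr1-/-, against 451, 594, 249 and 435 in wild type, with overlap (log2 -0.020, limma adjusted p = 0.981). Ppargc1a, the gene of PGC-1α, stood at 62.6 to 101 in livers labelled Msr1-/- and 40.0 to 106 in wild type (log2 0.022, limma adjusted p = 0.984). Among 12 ERR and PGC-1 targets limma gave 0 calls (2 at an unadjusted p under 0.05), as did edgeR and DESeq2, with a median of 0.099.

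The NR4A receptors are induced within minutes by stress and growth signals. Nr4a1 had 9.54, 357, 22.8, 17.5 and 23.0 in livers labelled Msr1-/-, against 19.2, 26.4, 48.6 and 41.7 in wild type. Msr1-/- 2 was the single high liver, and the interval was wide (log2 0.010, -1.85 to 1.87, limma adjusted p = 0.998). By edgeR and DESeq2 the log2 fold change was 1.32 (adjusted p = 0.591) and 1.33 (no adjusted p given), and by limma without that liver it was -0.85. Nr4a2 stood at 8.19 to 44.0 in livers labelled Msr1-/- and 3.21 to 40.0 in wild type, also highest in Msr1-/- 2 (log2 0.67, limma adjusted p = 0.688). Other immediate early genes gave 0 calls among 10 by limma (1 at an unadjusted p under 0.05), edgeR or DESeq2, with a median of -0.45. In Msr1-/- 2, Jun stood at 559, where the other livers labelled Msr1-/- had 114 to 142, and the highest Jun of all was that of wild type 3, at 612, against 51.3 to 141 in the other wild-type livers.

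The remaining orphan receptors overlapped between the genotypes. Nr2f2 (COUP-TFII) averaged 649 ± 93.8 in livers labelled Msr1-/- and 519 ± 119 in wild type (log2 0.34, limma adjusted p = 0.378). Nr2f6 averaged 271 ± 39.8 and 233 ± 33.0 (log2 0.22, 0.549), and 54.4% of its exon length overlaps Ocel1 on the opposite strand, which stood at 290.4 to 499.9 in livers labelled Msr1-/- and 133 to 271 in wild type. Nr2f1 was the lowest receptor, at 7.02 to 13.7 in livers labelled Msr1-/- and 4.22 to 14.2 in wild type. These are members of the COUP-TF group, which bind hexamer repeats of many spacings. The testicular receptors Nr2c1 (205 ± 28.0 in livers labelled Msr1-/- and 186 ± 27.3 in wild type) and Nr2c2 (44.2 ± 14.7 and 40.1 ± 14.8) and the germ cell nuclear factor Nr6a1 (153 ± 29.8 and 127 ± 40.7) had log2 fold changes of 0.14, 0.16 and 0.29 with limma adjusted p of 0.73, 0.884 and 0.585. For Nr2c2, 30.7% of the exon length overlaps Mrps25 on the opposite strand. Rora, an activator of clock genes, averaged 678 ± 93.9 in livers labelled Msr1-/- and 645 ± 114 in wild type (log2 0.077, limma adjusted p = 0.878).

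Clock genes with ROR elements gave 0 calls among 6 by limma (1 at an unadjusted p under 0.05), edgeR or DESeq2, with a median of 0.31. That list holds Nr1d1, itself a nuclear receptor that represses through the same elements, at 665 to 1597 in livers labelled Msr1-/- and 587 to 998 in wild type (log2 0.43, limma adjusted p = 0.499). The 4 tested nuclear receptors outside the 35 gave 0 calls by limma (2 at an unadjusted p under 0.05), edgeR or DESeq2, with a median of 0.48. The 25 coregulators, proteins that receptors recruit to open or close chromatin, gave 0 calls by limma (2 at an unadjusted p under 0.05), edgeR or DESeq2, with a median of 0.076. Among them Ncor1, a corepressor of unliganded receptors, averaged 966 ± 118 in livers labelled Msr1-/- and 858 ± 16.6 in wild type (log2 0.16, limma adjusted p = 0.542).

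**Figure D5:**
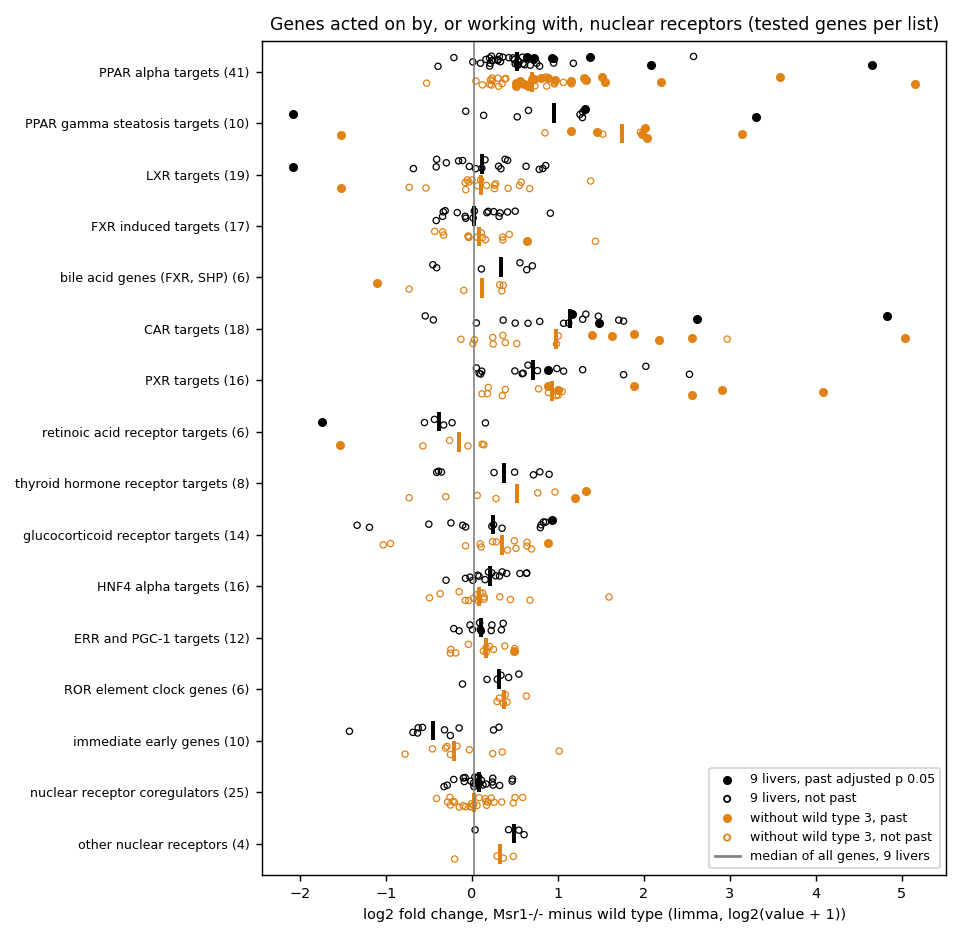
Log2 fold change of each tested gene (x axis, livers labelled Msr1-/- minus wild type, limma on log2(value + 1)) in the target and partner lists down the page, black for all 9 livers and orange without wild type 3, filled where the adjusted p was under 0.05, with a tick at each list's median and a grey line at the median of all genes, 0.017. The medians run from 1.14 for CAR targets to -0.45 for immediate early genes with 9 livers; 16 genes belong to more than 1 list.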

How the data were processed

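The authors deposited 1 table of normalised values (unit: signal, reads per gene scaled by 1 factor for each liver), each a whole multiple of 1 step within 0.01 reads in 100% of values. STAR, HTSeq, DESeq2 and mm10 are named, without versions or roles, per the submitters' processing notes; the kit was TruSeq RNA Library Prep Kit v2, per the labels' protocols, and strand use in counting is not given in the sources used here. Groups and animal numbers came from sample titles. Reads recovered from the steps (15006773 to 18238932 per liver) fed edgeR 4.0.16 and DESeq2 1.42.0 as alternatives; for Msr1-/- 5 the step lies so close to 1 that an automatic test of it makes no statement. Depths cover counting error only, and the p-values measure the spread between animals.

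The main test was limma 3.58.1 (R 4.3.3) with an intensity trend on log2(value + 1), for the 12937 genes averaging at least 10, the model holding genotype alone, and a Benjamini-Hochberg adjusted p under 0.05 over all of them. Intervals are 95%. For Msr1 an exact two-sided permutation test took the p as the smaller tail doubled, a convention chosen after 2 were seen. Levels per kilobase used the exon union of GENCODE M21 (GRCm38), and promoter windows came from RefSeq (GRCm38.p6). The members and all 25 gene lists (16 of targets and partners, 9 of cell type markers) were chosen with earlier results of these data known, so lists are described by counts and medians only. Named are all members in the table, up to 4 genes of smallest p per list and a fixed set; genes overlapping a receptor's exons, Jun and Adipoq were named after their values were seen. The pairing check and alternatives (pseudocounts 0.5 and 5, filters, TMM and quantile scaling, array weights, animal number as a block, each liver left out; edgeR and DESeq2 without wild type 3 added after seeing the data) are given under the processing below. Some genes of the lists are counted but not reported here by name. Fits were tested on simulated data. No 2 libraries were duplicates: chi-square per degree of freedom was at least 21.6 between any pair.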

Additional observations from a re-analysis of the deposited data

Results flagged for a closer look

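Each genotype's values of the 33 receptors and Msr1 were searched for a liver far from the rest of its genotype, on the log2 scale. Of 68 groups examined 4 had one, where chance alone gives about 1 in 20, or 3.4. Nr1i3 in wild type 3 stood at 79.2, where the other wild-type livers had 694 to 888. Nr4a1 in Msr1-/- 2 stood at 357, where the other livers labelled Msr1-/- had 9.54 to 23.0. Esrrg in Msr1-/- 2 stood at 119, against 62.1 to 74.1 in the other livers labelled Msr1-/-. Esrra in Msr1-/- 1 stood at 323, against 416 to 458 in the other livers labelled Msr1-/-.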

How the results depend on the processing

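Genes called numbered 177 by limma with all livers, 773 by DESeq2, 531 with array weights, 8 with the animal number as a replicate block, 656 by edgeR and 1059 by DESeq2 without wild type 3, and 36 (without Msr1-/- 2) to 629 (without wild type 3) with 1 liver left out. Receptors called numbered 0 by limma, 3 by DESeq2, 2 with array weights, 3 by edgeR and 4 by DESeq2 without wild type 3, and 0 to 3 with 1 liver left out. Pseudocounts, filters, TMM and quantile scaling left them at 0. Deviations of same-numbered animals correlated at 0.025, -0.077, -0.102 and 0.218. What the number marks is not stated, and these values cannot show whether such animals shared a litter or batch. The block gave 0 receptors, and Msr1-/- 1 correlated best with wild type 3 (0.403). The Msr1 difference was -0.58 with quantile scaling (exact permutation p = 0.0635), -0.57 with the block (p = 0.125, the smallest that block allows) and -0.72 to -0.31 with 1 liver left out. The median receptor level was 57.8 per kilobase of exon union and 80.4 per kilobase of the longest transcript.

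Signs turned for genes that were not called. Without wild type 3, by edgeR and DESeq2, log2 fold changes were -0.056 and -0.049 for Nr1h2, -0.14 and -0.14 for Nr1h4, 0.41 and 0.44 for Fgf21, 0.00026 and 0.0071 for Abcg1, -0.29 and -0.29 for Ppargc1a and -0.23 and -0.22 for Nr1d2. With all livers, edgeR and DESeq2 gave -0.32 and -0.27 for Cyp2b10, -1.06 and -1.05 for Cidec and -0.054 and -0.053 for Ppargc1a. They gave -0.033 and -0.032 for Nr1d2 and -1.09 and -1.07 for Pdk4, which had no adjusted p by DESeq2. Array weights gave -0.048 for Nr1h2, 0.21 for Fgf21, -0.17 for Ppargc1a and -0.12 for Nr1d2. The block gave 0.033 for Fgf21 and -0.071 for Ppargc1a. A pseudocount of 0.5 gave -0.00093 for Nr4a1, a pseudocount of 5 gave -0.050 for Pdk4, and quantile scaling gave -0.0069 for Nr1d2. Runs that left out 1 liver each spanned -0.062 to 0.14 for Nr1h2, -0.12 to 0.28 for Nr1h4, -0.082 to 0.33 for Nr2c2, -0.11 to 0.32 for Nr2f1, -0.016 to 0.11 for Nr3c1, -0.85 to 0.42 for Nr4a1, -0.12 to 0.024 for Hnf4a, -0.013 to 0.15 for Rora, -0.26 to 0.15 for Esrra, -0.52 to 0.96 for Pdk4, -1.19 to 0.96 for Fgf21, -0.81 to 0.12 for Cyp7a1, -0.15 to 1.96 for Cidec, -0.76 to 0.21 for Cyp26a1, -0.29 to 0.17 for Ppargc1a and -0.20 to 0.17 for Nr1d2. The cause was not tested. Read totals were similar across livers, but their scaling was not. The value of 1 read was 0.784 normalised counts in wild type 3, against 0.913 to 1.17 in the other livers.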
